A study of Bos taurus with 12 samples.

Results

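AKR1B1 and 3 related enzymes, AKR1A1, CBR1 and SORD, were followed in cells of 2-cell bovine embryos. Every probe carrying one of these 4 symbols in the array's probe-to-gene table was taken, which gave 7 of 43793 probes and 4 of 15216 genes. AKR1B1 and AKR1A1 had 2 probes each, SORD had 2 and CBR1 had 1. The set was chosen on measured values: AKR1B1 had been picked out by its high ratio in BL against 2CB, and the others were added for their function. The ratios of the 4 genes averaged as deposited are therefore a description and carry no p-value of their own. Adjusted p-values are given where the sign was turned by the dyes and for the difference between the comparisons.

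Each embryo had been bisected at the 2-cell stage, one blastomere was cultured alone until day 7, and its sister was frozen. BL stands for frozen cells whose sisters reached the blastocyst stage. 2CB stands for those whose sisters did not cleave again. 8CB is the labels' name for the third class, whose sisters are described there as stopping at 4 cells. Each class was represented by 3 separate pools, 15 blastomeres in each, and their RNA was amplified, so each value describes a pool of cells from many embryos, and the fate belongs to the sister and not to the cell measured. Fewer cells holding a transcript and less transcript per cell cannot be told apart in such pools. BL was hybridised against 2CB on 6 arrays of 2 colours and against 8CB on 6, with BL in Cy5 on 3 arrays of each comparison and in Cy3 on the other 3. Both comparisons share the BL class. They ask whether transcripts of a 2-cell blastomere differ with how far its sister later developed. The deposited values are log ratios between the channels with no intensities, so neither a level nor a signal above background can be given for any gene, and the identity of the cells could not be checked from marker levels.

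AKR1B1 encodes aldose reductase, which uses NADPH to reduce glucose to sorbitol in the first step of the polyol pathway and also reduces toxic aldehydes from lipid peroxidation. SORD, sorbitol dehydrogenase, carries out the next step and oxidises sorbitol to fructose. AKR1A1, aldehyde reductase, belongs to the same aldo-keto reductase family and reduces many aldehydes, and CBR1, a carbonyl reductase of the short-chain dehydrogenase family, reduces quinones, other carbonyls and prostaglandin ketones. In cattle, aldose reductase is also known to act as a prostaglandin F synthase in the endometrium. At the 2-cell stage most transcripts are maternal, inherited from the oocyte.

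How the sign of a ratio is read decides what the data say about these genes. The labels give the dye of each class on each array but not whether swapped arrays were already turned to one direction before deposit. After the mean of each orientation was removed, swapped arrays of one replicate number varied together across all probes in 5 of 6 pairs (median r = 0.38). Only the third replicate pair of BL against 8CB went the other way (r = -0.22). Values of arrays with BL in Cy5 are also written with up to 6 significant digits and those with the arrested class in Cy5 with up to 10. Both readings are given for that reason. In the first, values were averaged over both orientations as deposited, which leaves the direction from BL to the arrested class unknown, so values lie on a positive or a negative side. In the second, arrays with the arrested class in Cy5 had their sign turned, which gives BL over the arrested class if the deposited values are Cy5 over Cy3. Each average holds the class difference under one assumption only. If swapped arrays had already been turned, the first average holds it and the second keeps only a dye effect common to the arrays. If the values are Cy5 over Cy3, the second holds it and the first keeps only that dye effect. As deposited, the difference between the comparisons correlated at r = 0.55 between the orientations. A dye effect common to all arrays cancels in that difference. A class difference keeps its sign there if swapped arrays had been turned, and changes it if the values are Cy5 over Cy3. Dye effects that differ between the comparisons were not tested. The labels do not state which assumption holds, and dye bias was not separated from the folds of either reading, those of AKR1B1 included.

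AKR1B1 had a positive deposited ratio on 12 of 12 arrays by both of its probes, in either dye orientation. Its mean ratios were larger against 2CB, the comparison on which it was picked, than against 8CB. By probe EMBV3_25972, the log2 ratios in BL against 2CB were 1.06, 0.98 and 1.02 with BL in Cy5 and 1.32, 1.21 and 0.69 with 2CB in Cy5 (replicates 1 to 3). All 6 arrays lay well above 0 and the orientations overlapped. In BL against 8CB, the same probe had log2 ratios of 0.33, 0.72 and 0.39 with BL in Cy5 and 0.035, 0.62 and 0.88 with 8CB in Cy5. The lowest 2 of the 6 belonged to replicate 1.

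Averaged over orientations, probe EMBV3_25972 of AKR1B1 stood at 1.19, 1.09 and 0.86 in BL against 2CB, with a mean log2 ratio of 1.05 ± 0.17 (SD, n = 3), a 2.07-fold difference. In BL against 8CB its averaged ratios were 0.18, 0.67 and 0.63, with a mean of 0.50 ± 0.27 (SD, n = 3), or 1.41-fold. The 3 averaged ratios against 2CB were all higher than the 3 against 8CB. Of all probes, 99.9% had a lower mean ratio in BL against 2CB, where AKR1B1 was picked for its high ratio, and 99.1% in BL against 8CB. The comparisons share the BL class, so the rank against 8CB is not independent of that choice.

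The other AKR1B1 probe, EMBV3_01265, gave smaller and less separated ratios. In BL against 2CB its log2 ratios were 0.32, 0.50 and 0.82 with BL in Cy5 and 0.58, 0.82 and 0.37 with 2CB in Cy5, with a mean of 0.57 ± 0.11 (SD, n = 3 averaged ratios). In BL against 8CB they were 0.40, 0.30 and 0.49 with BL in Cy5 and 0.12, 0.50 and 0.98 with 8CB in Cy5, with a mean of 0.47 ± 0.24 (SD, n = 3). For this probe the averaged ratios of the comparisons overlapped. Taken as the mean of both probes, AKR1B1 lay at 0.81 ± 0.09 against 2CB and at 0.48 ± 0.09 against 8CB (log2, SE from limma, n = 3). Across the 12 arrays the probes correlated at r = 0.58, where the median over 2088 genes with 2 probes was 0.13. The 12 points share pools and dyes, and the probes differed by 0.069 to 0.74 on single arrays.

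**Figure D1:**
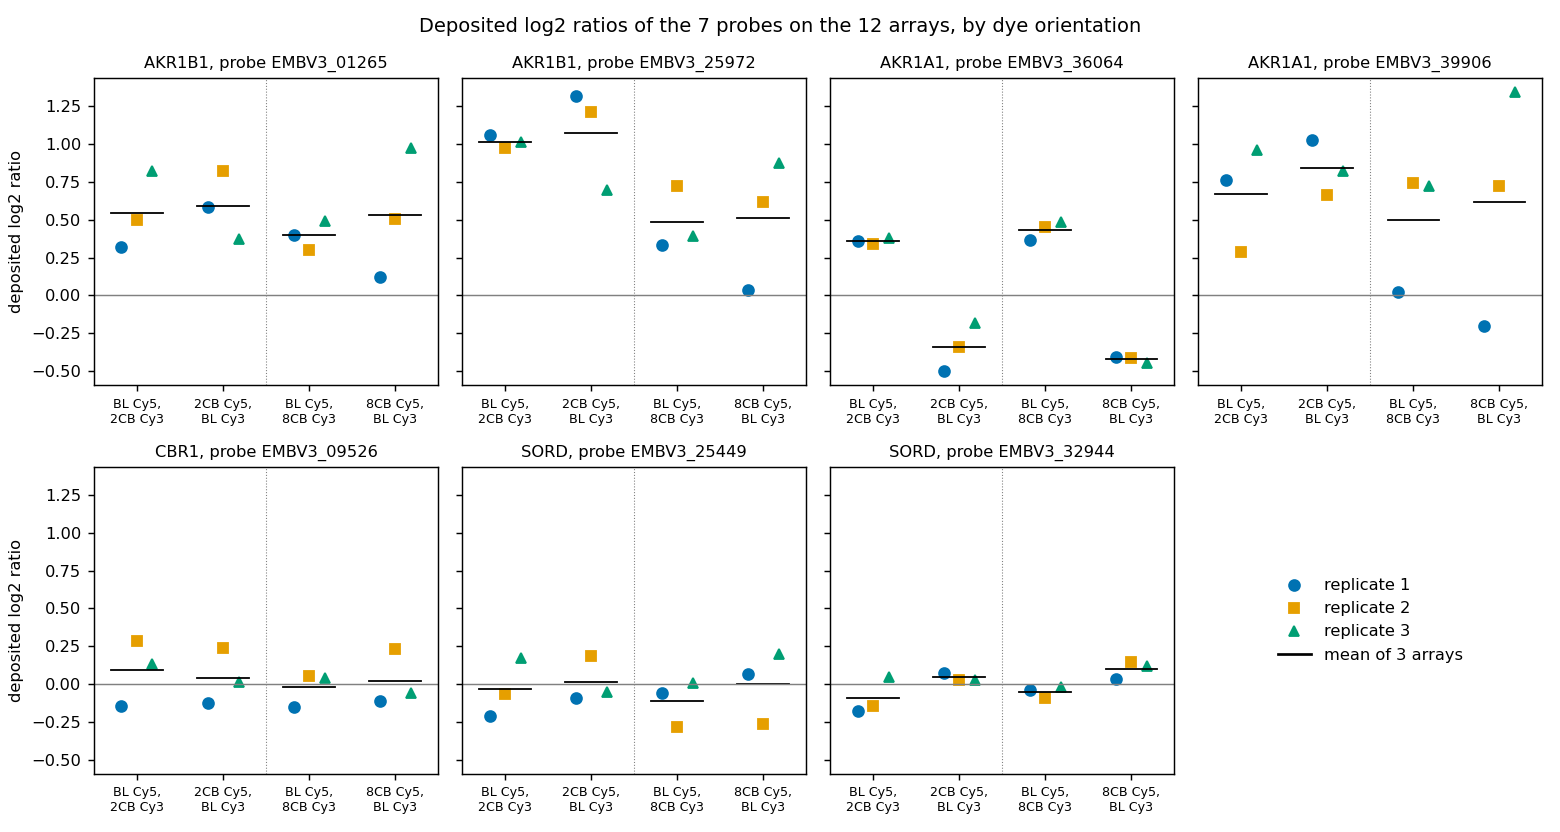
Deposited log2 ratio (vertical axis) of each of the 7 probes on the 12 arrays, with the 2 dye orientations of BL against 2CB left of the dotted line and those of BL against 8CB right of it; points are arrays, marked by replicate number, and bars are means of 3 arrays. Both AKR1B1 probes lie above 0 on 12 of 12 arrays, and AKR1A1 probe EMBV3_36064 lies above 0 with BL in Cy5 and below 0 with the arrested class in Cy5.

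The 2 probes of AKR1A1 behaved differently from each other. Probe EMBV3_39906 resembled AKR1B1, with a positive ratio on 11 of 12 arrays. In BL against 2CB its log2 ratios were 0.76, 0.29 and 0.96 with BL in Cy5 and 1.03, 0.66 and 0.82 with 2CB in Cy5, for a mean of 0.76 ± 0.24 (SD, n = 3 averaged ratios) and a 1.69-fold difference. In BL against 8CB they were 0.025, 0.75 and 0.72 with BL in Cy5 and -0.21, 0.72 and 1.34 with 8CB in Cy5. The array below 0 and the one next to 0 both belonged to replicate 1, and the mean there was 0.56 ± 0.58 (SD, n = 3). Without replicate 1 the mean against 8CB was 0.88, and without replicate 3 it was 0.32.

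Probe EMBV3_36064 of AKR1A1 changed sign with the dye orientation instead. With BL in Cy5 its log2 ratios were 0.36, 0.34 and 0.38 in BL against 2CB and 0.36, 0.45 and 0.48 in BL against 8CB. With the arrested class in Cy5 they were -0.50, -0.34 and -0.18 against 2CB and -0.41, -0.41 and -0.45 against 8CB. The orientations did not overlap in either comparison. A sign that turns with the orientation on all 12 arrays was found for 7.18% of all probes, and 1 sign on all 12 arrays for 2.14%. Averaged as deposited, the probe stood at 0.0086 ± 0.086 (log2, SD, n = 3) against 2CB and 0.0047 ± 0.023 against 8CB. The AKR1A1 probes correlated at r = -0.17 over the 12 arrays and differed by up to 1.79 on a single array, so the mean of both, 0.38 ± 0.12 against 2CB and 0.28 ± 0.12 against 8CB (SE), describes neither.

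SORD, the enzyme downstream of aldose reductase, stayed near 0 in both comparisons. By probe EMBV3_25449 the 12 log2 ratios ran from -0.28 to 0.20, with 5 above 0. Its averaged ratios were -0.15, 0.059 and 0.060 against 2CB and 0.0005, -0.27 and 0.10 against 8CB, so replicates lay on both sides. By probe EMBV3_32944 the ratios were -0.18, -0.15 and 0.045 against 2CB with BL in Cy5 and 0.075, 0.026 and 0.030 with 2CB in Cy5. Against 8CB they were -0.040, -0.091 and -0.018 with BL in Cy5 and 0.035, 0.15 and 0.12 with 8CB in Cy5. All 6 arrays with the arrested class in Cy5 lay above 0, as did 1 of the 6 with BL in Cy5. As the mean of both probes, SORD lay at -0.018 ± 0.054 against 2CB and -0.016 ± 0.054 against 8CB (log2, SE, n = 3).

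CBR1 had 1 probe, EMBV3_09526, and its ratios followed the replicate number more than the comparison. In BL against 2CB its log2 ratios were -0.15, 0.29 and 0.13 with BL in Cy5 and -0.12, 0.24 and 0.012 with 2CB in Cy5. In BL against 8CB they were -0.15, 0.056 and 0.042 with BL in Cy5 and -0.11, 0.23 and -0.057 with 8CB in Cy5. Replicate 1 lay below 0 on all 4 of its arrays and replicate 2 above 0 on all 4. Averaged ratios were -0.14, 0.26 and 0.073 in BL against 2CB and -0.13, 0.14 and -0.0075 in BL against 8CB. Replicate 1 was the lowest and replicate 2 the highest in both, and each comparison spanned 0. The mean was 0.067 ± 0.20 against 2CB and 0.0014 ± 0.14 against 8CB (log2, SD, n = 3).

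In the tests over all probes, limma called 0 of the 7 probes and 0 of 43793 (0%) against 2CB at an adjusted threshold of 0.05. Against 8CB it likewise called 0 of 7 and 0% of all probes. Before adjustment, 3 of the 7 passed 0.05 in both comparisons, namely both probes of AKR1B1 and EMBV3_39906 of AKR1A1. Over all probes the share was 16.6% in BL against 2CB and 9.78% in BL against 8CB. With all 12 arrays entered singly and the replicate number within a comparison as a random block, 3 of the 7 passed an adjusted 0.05 against 2CB (5.69% of all probes) and 0 of 7 against 8CB (1.82%). Since these ratios chose AKR1B1, nothing is read from the counts.

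Under the turned reading AKR1B1 was near 0 and a probe of AKR1A1 was not. For AKR1B1, BL over 2CB averaged -0.029 ± 0.16 by probe EMBV3_25972 and -0.022 ± 0.22 by EMBV3_01265 (log2, SD, n = 3), and BL over 8CB averaged -0.013 ± 0.20 and -0.067 ± 0.19. In limma the adjusted p of these 4 means ran from 0.70 to 0.94. AKR1A1 probe EMBV3_36064 had turned ratios of 0.43, 0.34 and 0.28 over 2CB, with a mean of 0.35 ± 0.07 (SD, n = 3) and a 1.28-fold difference. Over 8CB it had 0.39, 0.43 and 0.47, with a mean of 0.43 ± 0.04 (SD, n = 3), or 1.35-fold. The genes were not chosen on these differences between orientations. In limma over all probes the adjusted p was 0.0088 against 2CB, where 8.13% of probes passed 0.05, and 0.0082 against 8CB, where 4.63% did. All 3 replicates lay on the BL side in both comparisons if the deposited values are Cy5 over Cy3. If swapped arrays had already been turned, these values keep only a dye effect, and which holds was not tested.

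The remaining AKR1A1 probe, EMBV3_39906, had turned means of -0.084 ± 0.087 over 2CB and -0.062 ± 0.087 over 8CB (SE, n = 3; adjusted p = 0.54 and 0.69 in limma). CBR1 lay at 0.024 ± 0.041 and -0.019 ± 0.041. For SORD, probe EMBV3_32944 was at -0.069 ± 0.042 and -0.075 ± 0.042, both with an adjusted p of 0.31 in limma, and EMBV3_25449 at -0.024 ± 0.053 and -0.057 ± 0.053. Thus 1 of the 7 probes passed 0.05 in each comparison under the turned reading.

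**Figure D2:**
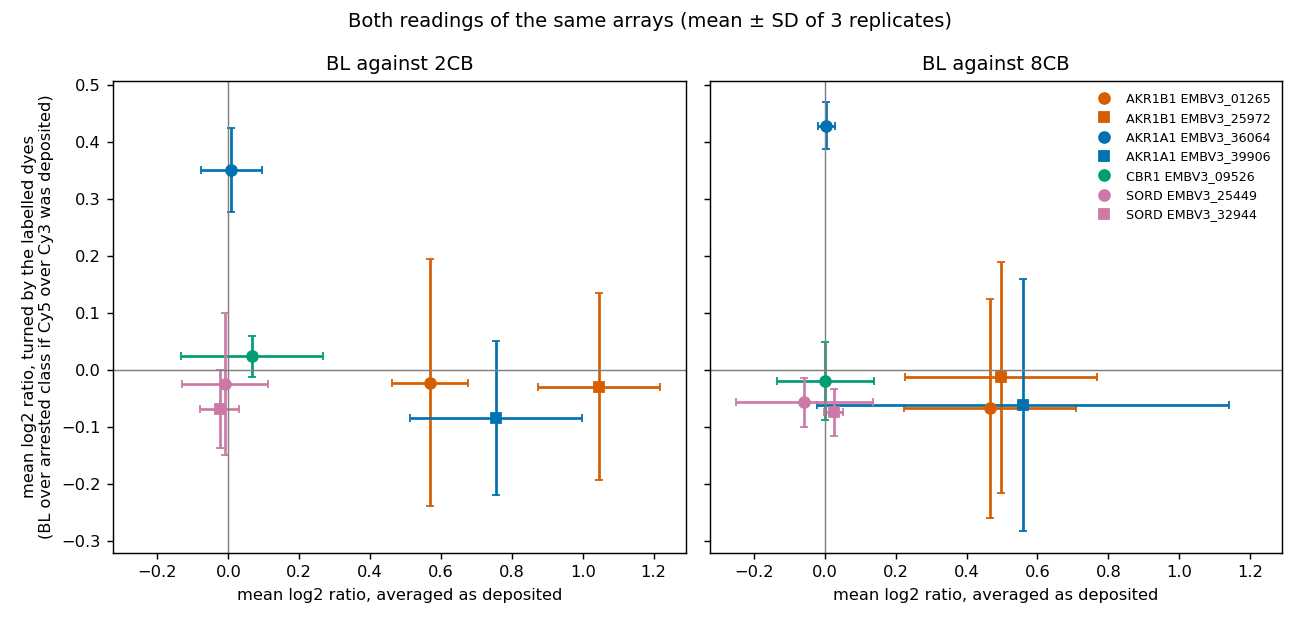
Mean log2 ratio of each of the 7 probes averaged as deposited (horizontal axis) against the mean after the sign was turned by the labelled dyes (vertical axis), for BL against 2CB (left) and BL against 8CB (right); error bars are the SD of 3 replicates. Both AKR1B1 probes and AKR1A1 probe EMBV3_39906 lie away from 0 along the horizontal axis, AKR1A1 probe EMBV3_36064 along the vertical axis, and CBR1 and SORD near 0 on both.

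2CB and 8CB shared no array, and their difference was formed through BL, subtracting the value against 8CB, averaged as deposited, from that against 2CB. AKR1B1 probe EMBV3_25972 differed by 1.00, 0.43 and 0.22 in replicates 1 to 3, with a mean of 0.55 ± 0.16 (log2, SE, n = 3). It was larger against 2CB in 3 of 3 replicates, and the adjusted p over all probes was 0.94 in limma. The second AKR1B1 probe differed by 0.10 ± 0.13 (adjusted p = 0.95 in limma) with one replicate on the other side, at -0.14. At an adjusted p under 0.05, 0 of the 7 and 0% of all probes passed, and at an unadjusted p under 0.05, EMBV3_25972 alone of the 7 and 4.53% of all probes did. This difference contains the ratios on which AKR1B1 was chosen.

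Replicate 1 of BL against 8CB stood apart for AKR1B1 and for AKR1A1 probe EMBV3_39906. Across all probes its averaged ratios correlated at -0.21 with those of replicate 2 and at 0.32 with those of replicate 3, where replicates 2 and 3 correlated at 0.38. Without replicate 1, AKR1B1 against 8CB lay at 0.65 by EMBV3_25972 and 0.57 by EMBV3_01265. Without replicate 3, whose swapped arrays did not vary together, it lay at 0.43 and 0.33. In BL against 2CB the values without 1 replicate ran from 0.98 to 1.14 by EMBV3_25972 and from 0.52 to 0.63 by EMBV3_01265.

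Averaged as deposited, most markers of the cell itself lay on the same side as AKR1B1. Of 12 genes known from oocytes and early blastomeres, 9 had a positive mean in BL against 2CB, where 54.2% of all genes did. The median log2 ratio of the 12 was 0.41, against 0.010 for all genes. Before adjustment 8 passed 0.05 on the positive side and 1 on the negative, where 18.0% of all genes passed on either side. After adjustment none of the 12 did in limma. BMP15, an oocyte-secreted growth factor, lay at 0.98 ± 0.25 and the zona protein ZP3 at 0.75 ± 0.21 (SE, n = 3), the highest of the list. On the negative side were ZAR1 (-0.12 ± 0.12), DPPA3 (-0.11 ± 0.04) and GDF9 (-0.06 ± 0.10). These 5 are named after their values were seen. In BL against 8CB 9 of the 12 were positive, where 52.6% of all genes were, and the median of the 12 was 0.19. Before adjustment 1 passed 0.05 on the positive side in limma and 1 on the negative, where 11.0% of all genes passed on either side. In replicate 1 there BMP15 (-0.18), NLRP5 (-0.21), OOSP2 (-0.29), KPNA7 (-0.13), MOS (-0.093) and H1-8 (0.036) were at their lowest, as was AKR1B1. GDF9 (0.09) and DPPA3 (-0.015) were at their highest in that replicate. The markers given for replicate 1 are also named after their values were seen. Under the turned reading 10 of the 12 were positive over 2CB and 8 of 12 over 8CB, where 45.6% and 43.4% of all genes were. Their medians were 0.11 and 0.079, and AKR1B1 lay at -0.026 and -0.040. The part of these markers in the AKR1B1 ratio was not tested. Cumulus and granulosa markers had a median of -0.0069 against 2CB and -0.035 against 8CB (13 genes), and sperm markers 0.037 and 0.034 (9 genes).

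All other measured enzymes of these pathways had means closer to 0 than AKR1B1 against 2CB, and all but ALDH2 were below it against 8CB. AKR1B1 was picked for its high ratio against 2CB, so nothing is read from its rank there. Both comparisons share the BL class, so its rank against 8CB is not independent of that choice either. In 6 lists covering the polyol pathway, aldo-keto reductases, carbonyl reductases, aldehyde and alcohol dehydrogenases, glyoxalases and prostaglandin metabolism, 89 of 103 genes besides the 4 were measured. Averaged as deposited, limma called none after adjustment in either comparison. Before adjustment 11 of 89 (12.4%) passed 0.05 against 2CB, 5 positive and 6 negative, where 18.0% of all genes did. Against 8CB 7 of 89 (7.87%) did, 6 of them positive, where 11.0% of all genes did.

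The polyol and fructose list had the most uniform side, with 13 of 13 measured genes positive against 2CB, where 54.2% of all genes were. Its median there was 0.083 and its lowest mean 0.011. In limma 2 of the 13 (15.4%) passed an unadjusted 0.05 there, where 18.0% of all genes did. Against 8CB 9 of 13 were positive, where 52.6% of all genes were, with a median of 0.048. In limma 30.8% of the 13 passed an unadjusted 0.05 there, 3 positive and 1 negative, where 11.0% of all genes did. Under the turned reading 6 of 13 were positive over 2CB and 8 of 13 over 8CB, where 45.6% and 43.4% of all genes were. The list was chosen with earlier results known. KHK, the kinase that phosphorylates fructose, lay at 0.11 ± 0.07 against 2CB and 0.03 ± 0.07 against 8CB (log2, SE, n = 3). TKFC, which phosphorylates glyceraldehyde from fructose breakdown, lay at 0.026 ± 0.046 and -0.002 ± 0.046. ISYNA1, inositol phosphate synthase, had the highest ratio of the list in both, 0.71 ± 0.11 and 0.41 ± 0.11, and was singled out after its values were seen.

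Among the 8 other aldo-keto reductases the means ran from -0.095 to 0.074 against 2CB and from -0.10 to 0.067 against 8CB, and none reached an unadjusted p under 0.05. AKR1B10, another member of the AKR1B subfamily, lay at 0.020 ± 0.035 and -0.058 ± 0.035, AKR1E2 at 0.029 ± 0.039 and 0.025 ± 0.039, and AKR7A2, an aflatoxin aldehyde reductase, at 0.07 ± 0.20 and -0.10 ± 0.20 (log2, SE, n = 3). Over the 12 arrays AKR1B10 correlated with AKR1B1 at r = -0.052, against 0.45 for AKR1A1 as the mean of its unlike probes, 0.33 for CBR1 and 0.32 for SORD. Of all genes, 88.6% had a lower r than AKR1A1, 81.8% than CBR1, 81.5% than SORD and 43.3% than AKR1B10.

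Carbonyl reductases and related dehydrogenases had 14 of 23 genes on the positive side against 2CB and 13 of 23 against 8CB. Of all genes, 54.2% and 52.6% were positive. CBR3, a close relative of CBR1, was at 0.32 ± 0.08 in BL against 2CB, positive in 3 of 3 replicates, and at 0.08 ± 0.08 in BL against 8CB. The mitochondrial CBR4 lay at -0.24 ± 0.08 and -0.06 ± 0.08, and SPR, sepiapterin reductase, at -0.39 ± 0.10 and 0.07 ± 0.10. DCXR, which reduces xylulose, was at 0.015 ± 0.036 and 0.001 ± 0.036 by the mean of 4 probes.

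Aldehyde dehydrogenases, which oxidise aldehydes rather than reduce them, had a median of -0.00087 against 2CB and 0.024 against 8CB over 18 genes. Mitochondrial ALDH2 was the one with the highest ratio against 8CB, with averaged ratios of 0.82, 0.76 and 0.71 and a mean of 0.76 ± 0.13 (SE, n = 3; adjusted p = 0.14 in limma). Against 2CB it had 0.11, 0.74 and 0.13, with a mean of 0.32 ± 0.13. Its values against 8CB were close together and those against 2CB rested largely on replicate 2. ALDH1B1 (0.29 ± 0.20 and 0.02 ± 0.20), ALDH3A2 (-0.01 ± 0.12 and 0.10 ± 0.12), ALDH7A1 (-0.073 ± 0.038 and 0.034 ± 0.038) and ALDH9A1 (0.04 ± 0.13 and 0.18 ± 0.13) had smaller ratios than ALDH2 in both comparisons.

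Of enzymes that clear formaldehyde and methylglyoxal, ADH5 had -0.44 ± 0.18 against 2CB and -0.18 ± 0.18 against 8CB, and ESD had -0.31 ± 0.12 and -0.11 ± 0.12. The glyoxalases GLO1 (-0.17 ± 0.09 and -0.06 ± 0.09) and HAGH (0.09 ± 0.06 and -0.02 ± 0.06) lay closer to 0. In prostaglandin metabolism PTGS2, the inducible cyclooxygenase, lay at -0.09 ± 0.13 and 0.04 ± 0.13. The E synthases PTGES (0.05 ± 0.08 and 0.12 ± 0.08), PTGES2 (-0.06 ± 0.07 and -0.02 ± 0.07) and PTGES3 (-0.14 ± 0.08 and 0.05 ± 0.08) were near 0, as were PTGR1 (0.08 ± 0.05 and 0.10 ± 0.05) and HPGD (0.002 ± 0.040 and 0.050 ± 0.040), which break prostaglandins down. PTGR2, another prostaglandin reductase, stood apart at -0.59 ± 0.13 against 2CB, with -0.66, -0.63 and -0.49 in the 3 replicates, and at -0.08 ± 0.13 against 8CB (adjusted p = 0.13 against 2CB in limma). It is named for its value, the farthest from 0 of the list. None of these reached an adjusted p under 0.05 in limma when averaged as deposited.

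Under the turned reading, 3 of the 89 genes passed an adjusted p of 0.05 over 2CB in limma, where 5.96% of all genes did, and 2 of 89 over 8CB, where 2.94% did. All lay on the BL side if the deposited values are Cy5 over Cy3. DHRS1 had 0.23 over 2CB and 0.20 over 8CB (adjusted p = 0.025 and 0.046 in limma), and the glyoxalase-like HAGHL had 0.26 and 0.30 (0.022 and 0.024). PTGR1 had 0.24 over 2CB (0.041) and 0.18 over 8CB (0.094). DHRS1 and HAGHL are named because they were the ones that passed.

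**Figure D3:**
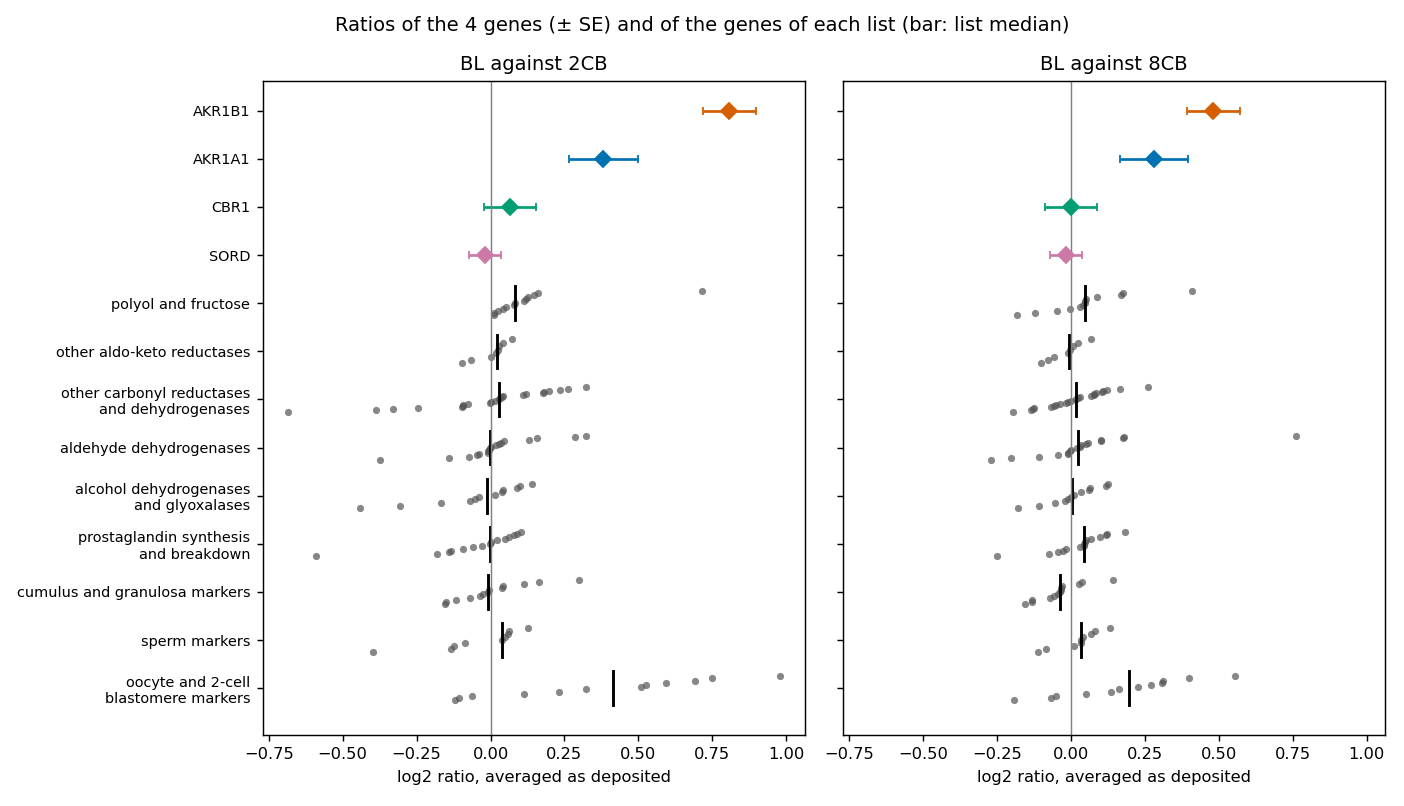
Log2 ratio averaged as deposited (horizontal axis) of AKR1B1, AKR1A1, CBR1 and SORD as means of their probes (diamonds, error bars SE, n = 3) and of the other genes of each list (points, 1 per gene; black bars are list medians), for BL against 2CB (left) and BL against 8CB (right). AKR1B1 lies at 0.81 and 0.48, beyond all points of the pathway lists against 2CB, the comparison on which it was picked. ALDH2 lies beyond it against 8CB at 0.76, and oocyte markers have medians of 0.41 and 0.19.

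The genes whose deposited ratios moved most like the mean of the AKR1B1 probes over the 12 arrays, out of 15215, were RASSF7 (r = 0.96), the Wnt receptor FZD3 (0.95), the ciliary transport protein IFT43 (0.94), LOC100301263 (0.93) and the complex I subunit NDUFA8 (0.93). The points share pools, dyes and arrays, and the highest of many correlations are high by selection. RASSF7 shows that the measure follows the pattern and not the side: it lay at 0.13 ± 0.11 against 2CB and -0.21 ± 0.11 against 8CB (SE, n = 3). FZD3 lay at 0.43 ± 0.10 and 0.08 ± 0.10, IFT43 at 0.40 ± 0.06 and 0.17 ± 0.06, and NDUFA8 at 0.42 ± 0.13 and 0.17 ± 0.13.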

How the data were processed

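Each array's deposited column holds 1 log ratio for each probe, which was taken as log2 because no base is stated. Limma is named without a version in the submitters' processing notes. How background, dye bias and filters were handled is not stated in the labels or headers. Column medians of the deposited log2 ratios ran from -0.003 to 0.010 and SDs from 0.26 to 0.38. With arrays, precision is limited by their number.

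The table has 43795 rows, of which 1 lacked a value and 1 was no numbered probe, and both were dropped. The annotation, which can be old, gave 1 symbol for 21790 probes, several for 0 and none for 22003. Symbols were looked up in the ARS-UCD2.0 gene table, where 20025 were current, 1524 were updated and 241 were kept unmatched. No coordinates are given because the array's build is not named, and no sequences were used.

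The 2 orientations of each replicate number were averaged without turning any sign. The 6 averages were fitted with lmFit and eBayes (limma 3.58.1, R 4.3.3), with 1 coefficient per comparison, two-sided p-values and Benjamini-Hochberg adjustment over all 43793 probes, threshold 0.05. Gene values are means of a gene's probes, fitted the same way. Deviations of the same replicate number correlated between comparisons at 0.30, 0.39 and 0.35, so numbers pair the pools by this measure. The fit was tested on simulated data. The members and lists were chosen with earlier results of these data known. Named besides the members are genes fixed by name in each list, those most like AKR1B1, and genes marked in the text as named for their values. SLC2A5 had no named probe. P-values of the fit on the 6 averages measure the spread between these averages and leave out the pairing of numbers between comparisons. Those of the single-array fits also take in the spread between swapped arrays of a replicate number. Figures used matplotlib 3.10.9.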

Additional observations from a re-analysis of the deposited data

Results flagged for a closer look

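AKR1A1 probe EMBV3_36064 lay on opposite sides in the 2 dye orientations on all 12 arrays. The difference between orientations divided by 2, BL in Cy5 minus the arrested class in Cy5, averaged 0.39 on the log2 scale over both comparisons. It passed an adjusted p of 0.05 in limma in each comparison, as given above, while the other AKR1A1 probe had values of -0.084 and -0.062.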

How the results depend on the processing

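The count of probes called at an adjusted p under 0.05, 0 in each comparison by the averaged ratios, was not stable. Turned by the labelled dyes, it was 3562 in BL against 2CB and 2028 in BL against 8CB. Arrays with BL in Cy5 alone gave 4220 and 1407. With 12 single arrays, a dye coefficient and the random replicate block it was 2492 and 798, and with arrays taken as independent 3826 and 1386, with 7 for 2CB against 8CB. The fixed replicate block across comparisons called 0 for 2CB against 8CB, and the AKR1B1 probe EMBV3_25972 had an adjusted p of 0.47 there. No other alternative called any probe. AKR1B1, as the mean of its probes, moved to -0.026 against 2CB and -0.040 against 8CB when turned by the labelled dyes. Under the other 12 alternatives it stayed between 0.77 and 0.85 against 2CB and between 0.38 and 0.61 against 8CB, which are also its lowest and highest values without 1 replicate. Some of the 12 alter only the error estimate or the other probes tested. They cannot move this mean, which was 0.81 and 0.48 there by construction. AKR1A1 probe EMBV3_36064 was at -0.34 and -0.42 with the arrested class in Cy5 alone and at 0.36 and 0.43 with BL in Cy5 alone. The filter on small ratios removed SORD probe EMBV3_32944. The cause of these shifts was not tested.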
